A study of Mus musculus with 6 samples.

Results

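The libraries described here are the single-cell RNA profiles of mouse melanomas with and without knockdown of Slc39a9, all from mice given a non-targeting antibody. The comparison set 2 libraries from tumours of Yumm5.2 cells carrying a short hairpin RNA against Slc39a9, hairpin 1 in one and hairpin 2 in the other, against 1 library from tumours carrying a control hairpin. Barcodes were kept with at least 500 unique molecular identifiers (UMIs, each standing for 1 captured transcript), at least 300 genes and at most 20% of UMIs from mitochondrial genes. This kept 20546 of the 43843 cells that pass those limits in the whole series: 7729 in the control library, 5081 in the hairpin 1 library and 7736 in the hairpin 2 library. The other 23297 cells come from tumours of the same 3 lines under an antibody to PD-1 and serve below only as separate libraries.

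Yumm5.2 is a melanoma line from C57BL/6 mice. In all 3 groups the cells also carried a hairpin against Cdkn2a on a blasticidin vector, so that the hairpin against this cell-cycle inhibitor is shared by the controls, and no library without it is there to show its effect. The control hairpin or an Slc39a9 hairpin was added on a puromycin vector, giving a selected pool for each hairpin. The tumours grew under the skin of the flank from 350000 implanted cells. The hosts received 200 µg of IgG by intraperitoneal injection 3 times a week, until tumours reached 0.5 cm3. How many tumours went into each library, and the age and sex of the mice, are not given in the sources used here.

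Slc39a9 encodes ZIP9, a zinc transporter of the Golgi apparatus and cell surface that moves zinc toward the cytosol and has also been described as a membrane androgen receptor. Cytosolic zinc is read by the transcription factor MTF1, which binds metal response elements in the promoters of the metallothioneins Mt1 and Mt2, small zinc-binding proteins, and of the zinc exporter Slc30a1. Macrophages are the most common immune cells of many transplanted melanomas. They span states marked by the haemoglobin scavenger receptor CD163 and states marked by MHC class II, which shows peptides to CD4+ T cells.

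The 3 libraries held 81032820 UMIs (control), 66067282 (hairpin 1) and 73356788 (hairpin 2), with median UMIs per cell of 6535, 8060 and 5904.5. Predicted doublets, 0.866% to 1.66% of cells, were removed, which left 20269 cells in 29 clusters. The libraries shared 4080 to 6709 barcode names pairwise. Of 300 same-named cells compared in each pair, at most 2 had the same-named cell of the other library as best match in expression. Clusters were assigned to the tumour line or the host by Xist and Y-linked genes, which assumes that line and hosts differ in sex. The tumour-line cells numbered 4992, 3323 and 5182 (control, hairpin 1, hairpin 2), with 71165547, 57032444 and 64855935 UMIs. Of the melanoma markers checked, Pax3 was present at 54.5, 72.7 and 56.5 CPM (UMIs of the gene scaled to the total of the class) and Mitf at 20.98, 17.2 and 19.7, whereas Sox10, Mlana, Tyrp1, Dct and Slc45a2 gave 0 to 3 UMIs per library. Most defining genes of pigment cells were therefore at or near 0, and these cells are called by their origin, tumour-line cells. Among host cells, the largest class led by macrophage markers, called macrophage/monocyte-like, held 1097, 811 and 932 cells with 3439567, 3329787 and 2308186 UMIs.

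The results use 2 measures. UMIs were summed per library and class, and edgeR's quasi-likelihood test compared the hairpin lines with the control, with p adjusted by the Benjamini-Hochberg method over all genes tested. That test takes its spread from the difference between the hairpin lines, with 1 residual degree of freedom, and assumes that the lone control library varies as they do. As the number of tumours behind each library is unknown, this spread may be partly technical. A gene is called past the fold when it differed at least 1.5-fold, in the same direction, in each hairpin line against the control. This is a description with no test, and both ratios share the 1 control library. CPM values from here on are scaled by TMM within the class. Marker sums, and the values of H2-Aa and Cd163 within single clusters, are instead scaled to the total UMIs.

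Slc39a9 itself (ENSMUSG00000048833, GRCm38/mm10 chr12:80643883-80683342, plus strand) was measured at 23.6 CPM in control tumour-line cells, 8.30 CPM with hairpin 1 and 12.0 CPM with hairpin 2. These levels rest on 1621, 485 and 784 UMIs. Both hairpin lines lay below the control, with log2 differences of -1.51 and -0.98, and the same held in 12 of 12 tumour-line clusters with enough cells. Counts of clusters here and below go by sign only. The clusters come from the same 3 libraries and are not repeats. The edgeR estimate was -1.22 ± 0.28 (SE), with an adjusted p of 0.861. In macrophage/monocyte-like cells, which carry no hairpin, Slc39a9 was at 23.7, 24.7 and 29.99 CPM, a difference of 0.20 ± 0.27. The shared target Cdkn2a stood at 335, 204 and 277 CPM in tumour-line cells, with hairpin 1 the lowest.

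In tumour-line cells, 16110 genes were measured and edgeR called none of them at an adjusted p below 0.05 (0% higher, 0% lower). The unadjusted p was below 0.05 for 877 genes, and the smallest adjusted p was 0.584. DESeq2 on the same sums called 63 genes, 16 higher and 47 lower. With no filter on low counts edgeR called 7. Past the fold in both hairpin lines were 861 genes higher (5.34% of those measured) and 672 lower (4.17%). These shares over all genes belong beside each list count given below for tumour-line cells. Each hairpin line alone differed more widely, with 2260 genes higher and 1736 lower for hairpin 1 and 1646 and 1348 for hairpin 2. A further 275 genes were past the fold in opposite directions. The median gene differed by 0.01 and 0.00.

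The tumour-line clusters did not make up the same shares of each library, and this moves many of the values that follow. Cluster 4, led by Pgf, Slc2a1 and Ero1l, was 17.5% of control tumour-line cells against 9.36% and 7.58%. Cluster 19, led by Saa3, Lcn2, Csf3 and Il6, was 3.83% against 0.722% and 1.35%. Cluster 2, led by the mitotic cyclins Ccnb1 and Ccna2, was 10.2% against 16.01% and 16.98%. The hairpin 1 library stood apart in clusters 9, led by H19 and Postn (2.20%, 18.3% and 2.08%), and 10, led by Stmn2 (1.90%, 18.0% and 1.72%), which were rare in the other libraries. A cluster's size and the level of the genes that define it are a single measurement. Each gene below was therefore also computed within clusters weighted by the control library's mix. Under that weighting 676 genes were higher and 512 lower past the fold. All 91 named genes kept their direction, and 46 of them were past the fold in both lines.

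**Figure D1:**
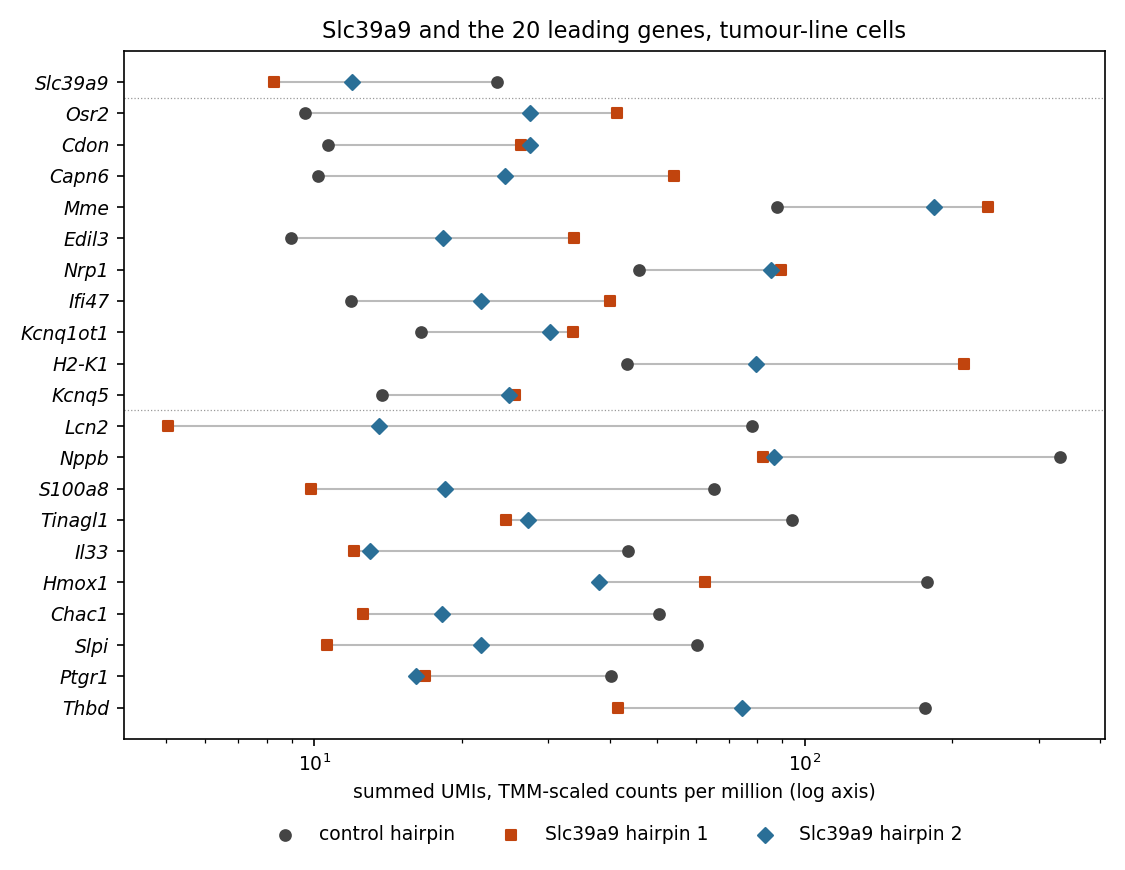
CPM of the named genes in tumour-line cells, on a log axis, with 1 point per IgG library (control, hairpin 1, hairpin 2). Both hairpin points lie on the same side of the control for each gene shown, such as Osr2 at 9.60 against 41.5 and 27.5 and Lcn2 at 78.2 against 5.05 and 13.6.

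Of 19 measured zinc genes, 3 were past the fold in both hairpin lines, all lower and none called by edgeR: Mt1, Mt2 and Slc30a1. Of all genes 4.17% were lower past the fold. Mt1 stood at 829 CPM in the control and at 446 and 511 CPM in the hairpin lines, an edgeR difference of -0.79 ± 0.18 with an adjusted p of 0.861. Mt2 stood at 796, 325 and 498 CPM, a difference of -0.95 ± 0.29. Slc30a1 stood at 13.3, 6.08 and 8.68 CPM, a difference of -0.85 ± 0.30. All 3 genes were highest in the control library, and the hairpin 1 line was the lowest for each. Mt2 was lower in both hairpin lines in 12 of 12 tumour-line clusters, and Mt1 and Slc30a1 in 8 of 12 each. The smallest log2 differences of Mt2 in a cluster were -0.11 with hairpin 1 and -0.02 with hairpin 2. With the control's cluster mix the log2 differences shrank to -0.15 and -0.24 for Mt1, -0.57 and -0.34 for Mt2 and -0.76 and -0.41 for Slc30a1, so that no zinc gene was past the fold in both lines. The importer Slc39a14 was at 128, 75.0 and 102 CPM and the Golgi importer Slc39a7 at 282, 255 and 264 CPM, both within 1.5-fold in at least 1 line. The sensor gene Mtf1 was at 26.9, 19.6 and 27.3 CPM.

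The promoters of these 3 genes are shown because they carry the letters read by MTF1. Each line gives the 250 bases before the RefSeq start (GRCm38.p6), 5′ to 3′ on the gene's strand, with capitals for each match to TGCGCNC or TGCACNC on either strand. Mt1 is chr8:94178839-94179088, Mt2 is chr8:94172368-94172617 and Slc30a1 is chr1:191906531-191906780, all on the plus strand.
Mt1: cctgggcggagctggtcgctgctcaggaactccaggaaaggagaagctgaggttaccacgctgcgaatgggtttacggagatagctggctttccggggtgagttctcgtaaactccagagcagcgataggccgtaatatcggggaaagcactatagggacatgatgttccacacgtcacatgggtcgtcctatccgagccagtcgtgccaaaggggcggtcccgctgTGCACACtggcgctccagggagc
Mt2: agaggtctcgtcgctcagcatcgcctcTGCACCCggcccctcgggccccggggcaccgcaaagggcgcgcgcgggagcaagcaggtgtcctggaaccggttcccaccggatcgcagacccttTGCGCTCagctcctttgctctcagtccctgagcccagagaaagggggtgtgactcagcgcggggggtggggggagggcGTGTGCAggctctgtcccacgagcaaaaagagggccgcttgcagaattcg
Slc30a1: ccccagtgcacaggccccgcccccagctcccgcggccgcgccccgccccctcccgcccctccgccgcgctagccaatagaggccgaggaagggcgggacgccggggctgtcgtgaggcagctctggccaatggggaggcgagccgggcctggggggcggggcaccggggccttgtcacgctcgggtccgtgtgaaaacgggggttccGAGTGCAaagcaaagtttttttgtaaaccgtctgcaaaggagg
Mt1 held 1 match on the gene's strand, at position -23 from the start. Mt2 held 2 matches on its own strand, at -223 and -128, and 1 on the other strand at -50. Slc30a1 held 1 on the other strand, at -43. Of 32851 promoters of this length, 7032 (21.4%) hold at least 1 match, so the letters are common, and a match does not show binding.

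The amino acid stress genes driven by ATF4 were lower in both hairpin lines. Of 32 measured, 8 were past the fold lower and none higher, with median log2 differences of -0.47 and -0.41 over the list. Trib3, a pseudokinase of this response, stood at 15.6 CPM in the control and at 2.88 and 2.44 CPM with the hairpins. The glutathione-degrading enzyme gene Chac1 stood at 50.5, 12.6 and 18.2 CPM. Both were highest in the control, with the hairpin lines close to each other, and edgeR gave -2.55 ± 0.26 for Trib3 and -1.71 ± 0.26 for Chac1, with adjusted p-values of 0.861. Asns, asparagine synthetase, was at 58.9, 35.2 and 31.6 CPM. Ddit3, which encodes the stress factor CHOP, was at 117, 63.8 and 60.7 CPM. Aars, Aldh1l2, Slc7a11 and Vldlr complete the group, whereas Atf4 itself, at 488, 405 and 377 CPM, was within the fold. With the control's cluster mix, 4 of the 32 genes were past the fold in both lines, among them Chac1 at -1.24 and -0.67 and Asns at -0.72 and -0.74. No gene of the unfolded protein response was past the fold in both lines (18 measured), against 5.34% higher and 4.17% lower of all genes.

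The lists of oxidative stress and low oxygen had members that were lower. Of 26 NRF2 antioxidant genes, 6 were past the fold lower and 1 higher. Hmox1, haem oxygenase, stood at 177, 62.5 and 38.1 CPM, with both hairpin lines below the control in 9 of 12 clusters. Ptgr1, a reductase that clears reactive aldehydes, is not among these 6 and was named as a leading lower gene, at 40.3, 16.8 and 16.1 CPM. Both hairpin lines were below the control for Ptgr1 in 7 of 12 clusters and above it in 3. Gclc, the catalytic subunit for glutathione synthesis, was at 69.7, 41.0 and 44.9 CPM. Of 30 glycolysis and hypoxia genes, 3 were past the fold lower and none higher. Among them were Ero1l, the oxidase of disulphide formation, at 540, 269 and 243 CPM and the glucose transporter gene Slc2a1 at 200, 108 and 83.5 CPM. Both genes lead cluster 4. Under the control's cluster mix this list had none past the fold lower and 1 higher, and the NRF2 list 3 lower and none higher. With that mix the differences were -0.14 and -0.52 for Ero1l and -0.09 and -0.63 for Slc2a1. The lipid-droplet gene Plin2 was at 371, 181 and 149 CPM.

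Among the leading genes that were lower, Lcn2 had the largest differences. This gene for the iron-binding acute phase protein lipocalin 2 stood at 78.2 CPM in the control and at 5.05 and 13.6 CPM with the hairpins, log2 differences of -3.95 and -2.52. Nppb, the precursor of B-type natriuretic peptide, stood at 332, 82.3 and 86.4 CPM, with an edgeR difference of -1.98 ± 0.14 and the smallest adjusted p of the table, 0.584. Thbd, the anticoagulant receptor thrombomodulin, stood at 176, 41.7 and 74.6 CPM. For all 3 the hairpin lines lay far below the control, and for Nppb they lay almost together. The matrix-associated gene Tinagl1 (94.2, 24.6 and 27.3 CPM), the alarmin gene Il33 (43.7, 12.05 and 13.01 CPM) and the protease inhibitor gene Slpi (60.3, 10.6 and 21.9 CPM) had the same order. S100a8, a calcium-binding alarmin that is also a neutrophil marker, was at 65.3, 9.84 and 18.4 CPM. With the control's cluster mix Lcn2 moved to -1.90 and -1.01, Nppb to -0.93 and -1.20, and Il33 to -0.70 and -1.38.

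Of 27 acute phase and NF-kB target genes, 10 were past the fold lower and none higher, with list medians of -0.97 and -0.34. Among the 10 were the cytokine genes Il6 (12.3, 3.37 and 2.49 CPM) and Csf3 (10.5, 2.22 and 2.97 CPM). Under the control's mix 7 of the 27 were past the fold lower, without Il6, which differed by -0.27 and -1.71. Of 22 chemokine genes measured in these cells, 9 were lower and 3 higher. Cxcl1, a ligand of the neutrophil receptor CXCR2, was at 91.0, 59.6 and 40.3 CPM, and a second such ligand, Cxcl2, was at 5.53, 1.76 and 1.66 CPM. Neutrophil markers, summed over the list, stood at 128 CPM in control tumour-line cells and at 74.8 and 61.8 with the hairpins. Much of the control sum is S100a8, named above as a leading lower gene and also a leading gene of tumour-line cluster 19. The sum is therefore not separate from that gene. Of 13 measured markers 9 lay past the fold lower, and Ly6g was at 0 in every library. Macrophage markers summed to 126, 95.5 and 122 CPM in the same cells, and 1 of 15 was lower. The part of neutrophil RNA in these differences was not tested.

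**Figure D2:**
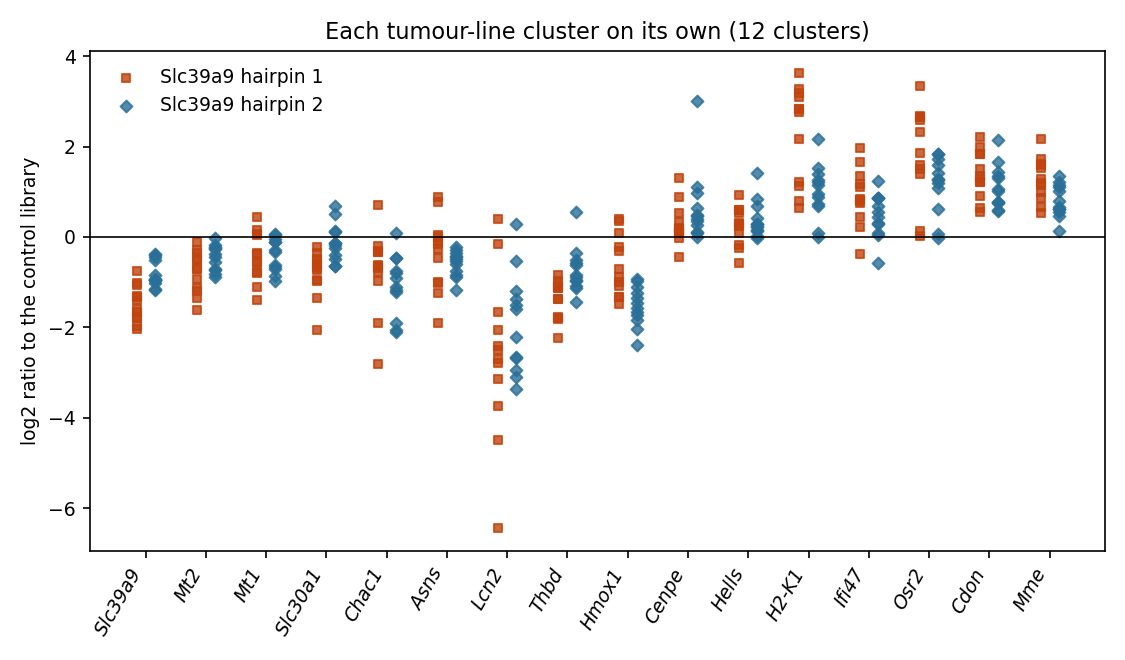
Log2 difference of each hairpin line against the control within 12 tumour-line clusters, for genes named in the text. Slc39a9 and Mt2 are lower in both lines in 12 of 12 clusters, Cdon and Mme are higher in 12 of 12, and Hmox1 is lower in 9 of 12. The clusters come from the same libraries and are not repeats.

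Genes induced by interferon gamma were higher in both hairpin lines. Of 24 measured, 11 were past the fold higher and none lower, with list medians of 0.71 and 0.70. Iigp1, a GTPase that attacks vacuoles of intracellular parasites, stood at 1.38 CPM in the control and at 17.6 and 6.71 CPM with the hairpins. Irgm1, of the same GTPase family, stood at 9.98, 22.2 and 18.3 CPM. Ifi47, also of that family but not among the 11, was named as a leading gene and stood at 11.9, 40.1 and 21.9 CPM. Hairpin 1 was the higher of the lines for each. For Irgm1 edgeR gave 1.02 ± 0.23 with an adjusted p of 0.861. The MHC class I presentation list had 6 of 21 genes higher and none lower. The class I heavy chain gene H2-K1 stood at 43.4, 211 and 79.4 CPM, while H2-D1 was at 213, 309 and 218 CPM and B2m at 498, 562 and 469 CPM. The immunoproteasome gene Psmb8 was at 3.54, 16.6 and 5.63 CPM, and the peptide transporter gene Tap1 at 1.24, 4.07 and 3.19 CPM. Type I interferon genes were past the fold higher for 4 of 23 and lower for 1. With the control's mix 7 of the interferon gamma genes and 5 of the class I genes were higher past the fold, H2-K1 among them at 2.06 and 0.78.

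Among chemokines that draw lymphocytes, Ccl5 was at 1.85, 3.75 and 5.95 CPM and Cxcl12 at 6.55, 22.7 and 12.5 CPM. The interferon-induced Cxcl9 gave 2, 136 and 63 UMIs.

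Proliferation genes were higher as well. Of 36 G2/M genes 8 were past the fold higher and of 34 S phase genes 7, with none lower, and list medians ran from 0.40 to 0.56. Cenpe, a kinetochore motor, stood at 98.5, 162 and 166 CPM. The mitotic kinase gene Cdk1 stood at 97.3, 148 and 162 CPM. Hells, a chromatin remodeller of replicating cells, stood at 35.1, 61.8 and 54.4 CPM. The hairpin lines were close to each other and above the control in each case. With the control's cluster mix no gene of either list was past the fold in both lines, and Cenpe differed by 0.08 and 0.09. The larger share of cells in the mitotic cluster 2 and the higher level of these genes are the same measurement.

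The other leading genes that were higher have varied roles. Osr2, a transcription factor of limb and palate development, stood at 9.60 CPM in the control and at 41.5 and 27.5 CPM with the hairpins, an edgeR difference of 1.85 ± 0.32. Cdon, a coreceptor of hedgehog ligands, stood at 10.7, 26.4 and 27.5 CPM and was higher in 12 of 12 clusters. Mme, the peptidase neprilysin, stood at 87.6, 237 and 184 CPM and was also higher in 12 of 12. All 3 kept both lines past the fold with the control's mix, at 1.55 and 1.00 for Osr2, 1.44 and 1.11 for Cdon and 0.99 and 0.68 for Mme. Osr2 also leads cluster 11, which made up 3.23%, 5.36% and 6.43% of tumour-line cells. Capn6, a calpain relative that binds microtubules, was at 10.2, 54.1 and 24.4 CPM. The integrin ligand gene Edil3 was at 8.96, 33.9 and 18.3 CPM and the semaphorin and VEGF coreceptor gene Nrp1 at 45.9, 89.6 and 85.2 CPM. Kcnq1ot1, an imprinted non-coding RNA, was at 16.5, 33.6 and 30.2 CPM and the potassium channel gene Kcnq5 at 13.8, 25.7 and 24.9 CPM. DESeq2 called Osr2, Cdon, Capn6, Mme and Nrp1 among these genes, as it did Lcn2, Nppb, Thbd, Hmox1, Chac1 and Slc2a1 among those that were lower.

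Some gene lists had no member past the fold. None of 23 cholesterol synthesis genes, 32 oxidative phosphorylation genes or 18 genes for uptake of dying cells was past the fold in both lines. Over all genes measured 5.34% were higher and 4.17% lower, so at those rates few members per list would be past it. Of 24 genes of invasive, dedifferentiated melanoma, 4 were lower and none higher. Of 26 genes on the list of proinflammatory macrophage genes 14 were lower, and 10 were lower under the control's mix. Clec4d, 1 of the 14, is also on the neutrophil marker list. The part of immune-cell RNA in these counts was not tested. Of 23 lipid and lysosome genes of macrophages 4 were lower, and checkpoint genes had 1 of 16 higher and 2 lower. The invasive genes that were lower include the matrix gene Tnc at 368, 191 and 195 CPM and Sox9, a transcription factor, at 189, 124 and 110 CPM.

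**Figure D3:**
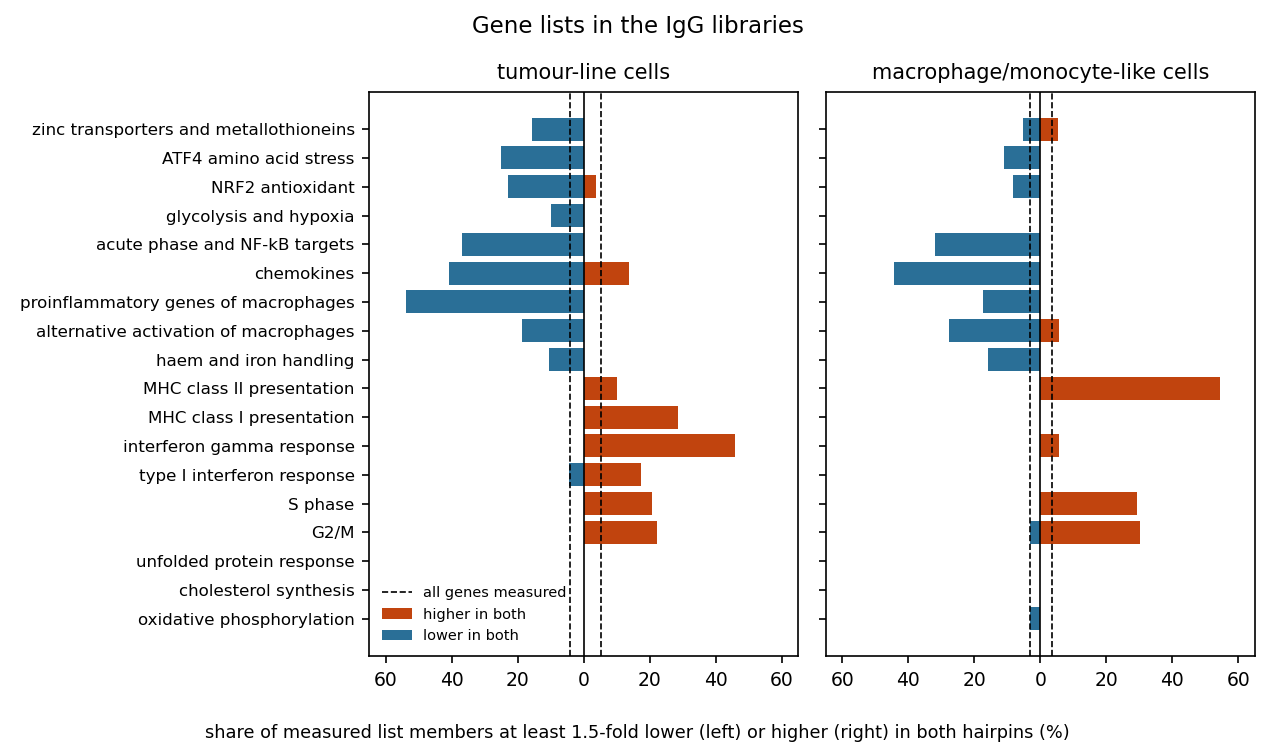
Share of the measured members of each list (percent) past the fold in both hairpin lines, lower to the left and higher to the right, in each class, with dashed lines for all genes measured. In tumour-line cells interferon gamma genes lie on the higher side (11 of 24) and acute phase genes on the lower side (10 of 27); in macrophage/monocyte-like cells MHC class II genes lie on the higher side (6 of 11) and chemokines on the lower side (8 of 18).

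In macrophage/monocyte-like cells of the host, edgeR called 81 of 11440 genes, 24 higher (0.21%) and 57 lower (0.498%), and 832 had an unadjusted p below 0.05. Past the fold in both lines were 404 genes higher (3.53%) and 356 lower (3.11%). These shares over all genes belong beside each list count given below for these cells. MHC class II genes rose and Cd163, iron export and several chemokine genes fell. DESeq2 called 6 of the 81 genes and a fit with the anti-PD-1 libraries as further groups called 1, Cd163. In the fit over all groups, which takes its spread also from the anti-PD-1 pair, 1 of the 33 named genes that edgeR called kept an adjusted p below 0.05 with all libraries. In that fit 6 were called without the hairpin 1 library (Cd163, H2-Aa, H2-Ab1, H2-Eb1, Cd74 and Lyve1) and 18 without the hairpin 2 library, where the lone hairpin library is assumed to vary like the others.

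All 4 main genes of the MHC class II complex rose in macrophage/monocyte-like cells. H2-Aa, the alpha chain of I-A, stood at 60.6 CPM in the control and at 169 and 262 CPM in the hairpin tumours, an edgeR difference of 1.82 ± 0.23 with an adjusted p of 0.000336. H2-Ab1, its beta chain, stood at 167, 457 and 805 CPM (1.92 ± 0.26, adjusted p of 0.000573). Cd74, the invariant chain that guides class II through the cell, stood at 322, 887 and 1233 CPM (1.72 ± 0.22, adjusted p of 0.000336). The control was the lowest and hairpin 2 the highest in each. H2-Eb1, the beta chain of I-E, went from 118 to 305 and 564 CPM, and H2-DMa, which loads peptide, from 61.2 to 123 and 110 CPM. Both rose, with adjusted p-values of 0.000885 and 0.0105. Of 11 class II genes measured, 6 were past the fold higher and none lower. Ciita, the master regulator, was at 3.55, 3.32 and 15.9 CPM, so only the hairpin 2 library was high. Class I genes and type I interferon genes had none past the fold (23 and 20 measured), against 3.53% higher and 3.11% lower of all genes. H2-K1 was at 1125, 1363 and 1295 CPM.

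The class II result depends on which cells are counted as macrophages. H2-Aa was higher in both hairpin lines in each of the clusters that form the class, at 42.5, 130 and 161 CPM in cluster 0 and at 217, 608 and 711 CPM in cluster 7. In cluster 5, an unnamed host cluster led by H2-Eb1, H2-Aa, H2-Ab1 and Cd74, it stood at 2427, 2910 and 2811 CPM, within 1.5-fold. In the unnamed clusters 13 (583, 524 and 1324 CPM) and 15 (2290, 2228 and 3830 CPM) only the hairpin 2 library lay above the control. When all host clusters with the macrophage list as their best match were summed, H2-Aa differed by 1.01 with an adjusted p of 0.662, and none of the 4 main class II genes was called. Dendritic cell markers in the macrophage/monocyte-like sums totalled 1306, 2053 and 2190 CPM, with Xcr1 and Cd209a at 0 in every library. Of 6 measured markers 2 were past the fold, of which H2-Ab1 is 1. H2-Ab1 is also part of the sum, so the sum is not separate from the class II result. The part of dendritic cells in that result was not tested.

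The promoters of H2-Aa and H2-Eb1 are shown for the Y box, the class II element bound by NF-Y beside the RFX proteins that recruit CIITA. The lines give 250 bases before the RefSeq start (GRCm38.p6) on the gene's strand, with capitals for matches to CTGATTGG, searched on both strands. H2-Aa is chr17:34287824-34288073 on the minus strand and H2-Eb1 is chr17:34305617-34305866 on the plus strand.
H2-Aa: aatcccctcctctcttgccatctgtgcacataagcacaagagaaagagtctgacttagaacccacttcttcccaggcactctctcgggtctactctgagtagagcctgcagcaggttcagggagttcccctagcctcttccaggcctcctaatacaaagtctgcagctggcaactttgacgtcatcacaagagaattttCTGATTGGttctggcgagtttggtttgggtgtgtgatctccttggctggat
H2-Eb1: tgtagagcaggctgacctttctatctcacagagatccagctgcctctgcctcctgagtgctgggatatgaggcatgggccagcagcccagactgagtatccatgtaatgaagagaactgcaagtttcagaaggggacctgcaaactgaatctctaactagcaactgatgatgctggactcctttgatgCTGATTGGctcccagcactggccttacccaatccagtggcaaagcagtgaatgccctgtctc
Each holds 1 match, at -51 in H2-Aa and -62 in H2-Eb1, and 1258 of 32851 promoters (3.83%) hold these letters.

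**Figure D4:**
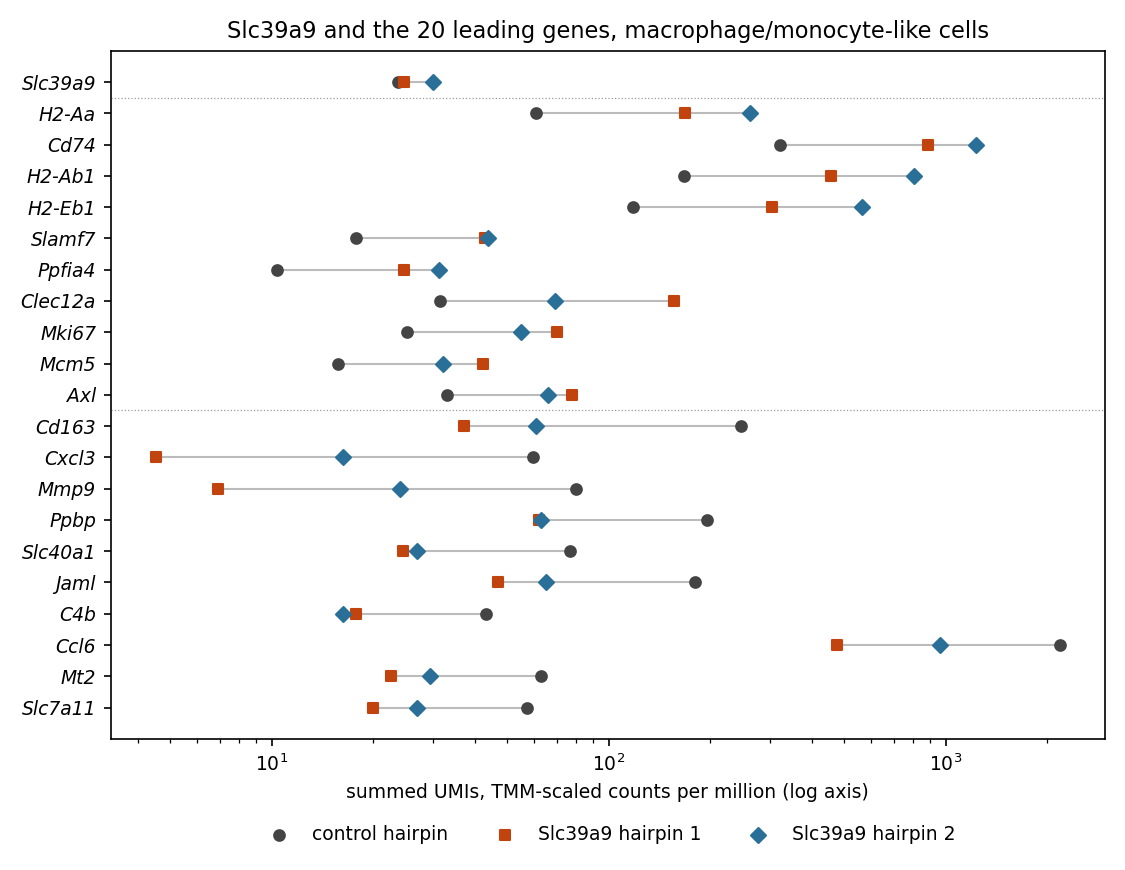
CPM of the named genes in macrophage/monocyte-like cells on a log axis, with 1 point per IgG library. H2-Aa lies at 60.6 in the control and at 169 and 262 in the hairpin tumours, and Cd163 at 247 against 37.1 and 60.8.

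Cd163, the scavenger receptor for haemoglobin-haptoglobin complexes, fell with the smallest adjusted p of the class. It stood at 247 CPM in the control and at 37.1 and 60.8 CPM in the hairpin tumours, a difference of -2.36 ± 0.20 with an adjusted p of 2.02e-06. Both hairpin libraries lay below the control in cluster 0 (251, 38.8 and 63.6 CPM), in cluster 7 (161, 15.3 and 52.6 CPM) and in cluster 5 (33.0, 2.34 and 7.71 CPM). The hairpin 1 value in cluster 5 stands for 3 UMIs. Cd163 was lower in both lines in 4 of the 5 host clusters with enough cells. It kept an adjusted p below 0.05 in every alternative fit run for it. Slc40a1, the iron exporter ferroportin, fell from 76.9 to 24.4 and 27.0 CPM (-1.59 ± 0.20, adjusted p of 0.000336). Of 19 haem and iron genes, Cd163, Slc40a1 and Hp were past the fold lower and all 3 were called, and none was higher. Hmox1, the enzyme that degrades haem, was at 512, 412 and 270 CPM and was not called.

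Other genes of alternatively activated and resident macrophages split. Lyve1, a hyaluronan receptor of perivascular macrophages, fell from 118 to 57.6 and 27.0 CPM (adjusted p of 0.00467). F13a1, coagulation factor XIII A, fell from 2433 to 1370 and 1398 CPM (adjusted p of 0.0442). Mgl2, a galactose lectin, rose from 28.4 to 92.9 and 56.1 CPM (adjusted p of 0.0068). Of 18 such genes 5 were past the fold lower and 1 higher. Mrc1, the mannose receptor CD206, was at 3504, 2163 and 2655 CPM and was not called. The fractalkine receptor gene Cx3cr1 rose from 362 to 943 and 641 CPM (adjusted p of 0.0118) and Axl, a receptor for dying cells, from 33.1 to 77.8 and 66.0 CPM (adjusted p of 0.00706). Clec12a, an inhibitory lectin receptor, rose from 31.6 to 157 and 69.4 CPM, and Slamf7, a self-ligand receptor of leukocytes, from 17.7 to 42.8 and 43.7 CPM.

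Of 18 chemokine genes measured, 5 fell by the edgeR test, 8 were past the fold lower and none was higher. Ccl6 stood at 2177 CPM in the control and at 476 and 963 CPM in the hairpin tumours (-1.60 ± 0.26, adjusted p of 0.00329). Cxcl3, a ligand of CXCR2, stood at 59.4, 4.53 and 16.3 CPM (-2.61 ± 0.37, adjusted p of 0.000785). Ppbp, a chemokine of platelets and of cluster 7, stood at 196, 62.1 and 63.0 CPM (-1.65 ± 0.16, adjusted p of 1.08e-05). The control library was the highest for all of them. Ccl8 and Cxcl1 fell too, from 358 to 128 and 220 CPM and from 127 to 67.9 and 78.0 CPM. The gelatinase gene Mmp9 fell from 80.1 to 6.94 and 23.996 CPM and the adhesion gene Jaml from 180 to 47.1 and 65.1 CPM. Secreted Spp1, osteopontin, fell from 1395 to 707 and 818 CPM, and Plin2 from 545 to 269 and 315 CPM.

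Neutrophil markers were lower in the same macrophage/monocyte-like sums. Over the list they summed to 822 CPM in the control and to 495 and 557 CPM, 8 of 11 measured were past the fold lower and 5 were called, while Ly6g and Stfa2l1 were at 0 in every library. Mmp9 is on that list, and S100a8 was at 10.9, 0.905 and 0.857 CPM. Their part in the decreases of Cxcl3, Slpi, Hp and Saa3 was not tested. Melanoma markers summed to 178, 174 and 176 CPM and macrophage markers to 42698, 41012 and 41056 CPM, nearly level between libraries.

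Among zinc genes of the host macrophages, which carry no hairpin, 1 was called. Mt2 fell from 63.0 to 22.6 and 29.6 CPM (-1.29 ± 0.22, adjusted p of 0.00529), whereas Mt1 was at 155, 129 and 101 CPM (-0.42 ± 0.17, adjusted p of 0.52). Of 19 zinc genes Mt2 was past the fold lower and Slc39a4, at 1, 18 and 9 UMIs, higher. Of all genes 3.11% were lower and 3.53% higher, so 1 of 19 in each direction is near those shares. Among ATF4 genes, 3 of 27 were lower and 2 were called: the cystine transporter gene Slc7a11 fell from 57.4 to 19.9 and 27.0 CPM and the mTORC1 inhibitor gene Ddit4 from 103 to 45.0 and 58.3 CPM.

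Dividing-cell genes were higher in the macrophage/monocyte-like cells. Of 34 S phase genes 10 were past the fold higher and none lower, and of 33 G2/M genes 10 were higher and 1 lower. Mki67, the proliferation antigen, rose from 25.1 to 70.0 and 54.8 CPM (adjusted p of 0.00529) and the helicase gene Mcm5 from 15.7 to 42.2 and 32.1 CPM (adjusted p of 0.0388). Cenpe rose from 19.5 to 50.1 and 36.9 CPM. The cyclin gene Ccnd2 rose from 39.9 to 114 and 75.8 CPM. Cluster 21, a separate host cluster led by Neil3, Mki67 and Cx3cr1, also held more of the host cells in the hairpin libraries, as given below.

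Of the other host clusters, 5 and 15 held enough cells for sums in each IgG library. In cluster 5 (197, 260 and 601 cells), edgeR called 3 of 9834 genes, all lower (0% higher, 0.0305% lower). The call count was 74 without the count filter and, in the fit over all groups, 0 with all 6 libraries, 17 without hairpin 1 and 159 without hairpin 2. The unadjusted p was below 0.05 for 551 genes, and DESeq2 called none. Slc40a1 fell from 139 to 5.55 and 25.2 CPM (-3.05 ± 0.41, adjusted p of 0.008), Chil3, a chitinase-like lectin, from 113 to 10.3 and 23.7 CPM and Hp, haptoglobin, from 69.0 to 6.35 and 14.9 CPM. Past the fold were 585 genes higher (5.95%) and 499 lower (5.07%). Iigp1 was the leading higher gene at 6.64, 182 and 59.2 CPM, and no class II gene of 11 measured was past the fold in both lines. The matrix gene Spon1 was at 71.7, 6.35 and 22.1 CPM. Neutrophil markers summed to 1304, 414 and 804 CPM in these cells.

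In cluster 15 (113, 185 and 134 cells), led by Cdh1, Klrb1b, Cd209a and Mgl2, edgeR called none of 7032 genes (0% higher, 0% lower), 169 had an unadjusted p below 0.05, and DESeq2 called none. The count was 4 without the count filter and, in the fit over all groups, 0 with all 6 libraries, 21 without hairpin 1 and 11 without hairpin 2. Past the fold were 442 genes higher (6.29%) and 364 lower (5.18%). The leading lower genes included Sox4, a transcription factor, at 169, 33.8 and 22.1 CPM and the interferon-induced gene Rsad2 with 25, 9 and 0 UMIs. Among the leading higher genes, Gbp3 rested on a single UMI in the control, with 1, 20 and 13 UMIs.

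The share of host cells in all cells was 34.2% in the control library (95% exact binomial interval 33.2 to 35.3), 33.8% with hairpin 1 (32.5 to 35.2) and 31.9% with hairpin 2 (30.9 to 33.0). Intervals here cover counting error only, and 1 library against 2 cannot give an exact p below 0.333. Neutrophil-like cells, led by S100a9, G0s2, Retnlg and Cxcr2, were 14.4% of host cells in the control (13.1 to 15.8), 2.29% with hairpin 1 (1.63 to 3.11) and 4.35% with hairpin 2 (3.57 to 5.23). Both hairpin libraries were far below the control. The median in neutrophil-like cells was 997, 812 and 788.5 UMIs, close to the limit of 500. Over all cells of the 3 libraries the medians were 6535, 8060 and 5904.5 UMIs. The part of depth in the number of neutrophil-like cells kept was not tested. Macrophage/monocyte-like cells were 42.2%, 47.6% and 38.2% of host cells, with the control between the hairpin libraries.

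T and NK-like cells were 1.04% of host cells in the control and 1.58% and 3.28% in the hairpin libraries (27, 27 and 80 cells). Mast-like cells were 0.307%, 0.938% and 1.44% (8, 16 and 35 cells). For both classes the intervals of the control and hairpin 1 libraries overlap. Endothelial-like cells (2.23%, 1.70% and 3.69%) had the control between the hairpin libraries. Fibroblast-like cells were 1.84%, 0.762% and 1.35% (48, 13 and 33 cells). The class II-rich cluster 5 was 7.57% of host cells in the control and 15.2% and 24.7% in the hairpin libraries. The proliferating cluster 21 was 1.69%, 7.45% and 3.40%. Cluster 16, led by Chil3, Plac8, F10 and Ly6c2, went the other way at 10.9%, 1.29% and 4.59%, and cluster 15 was 4.34%, 10.9% and 5.50%. Since class II genes, Mki67 and Chil3 also differed within macrophage/monocyte-like cells, the sizes of clusters 5, 21 and 16 are not separate evidence from those genes.

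**Figure D5:**
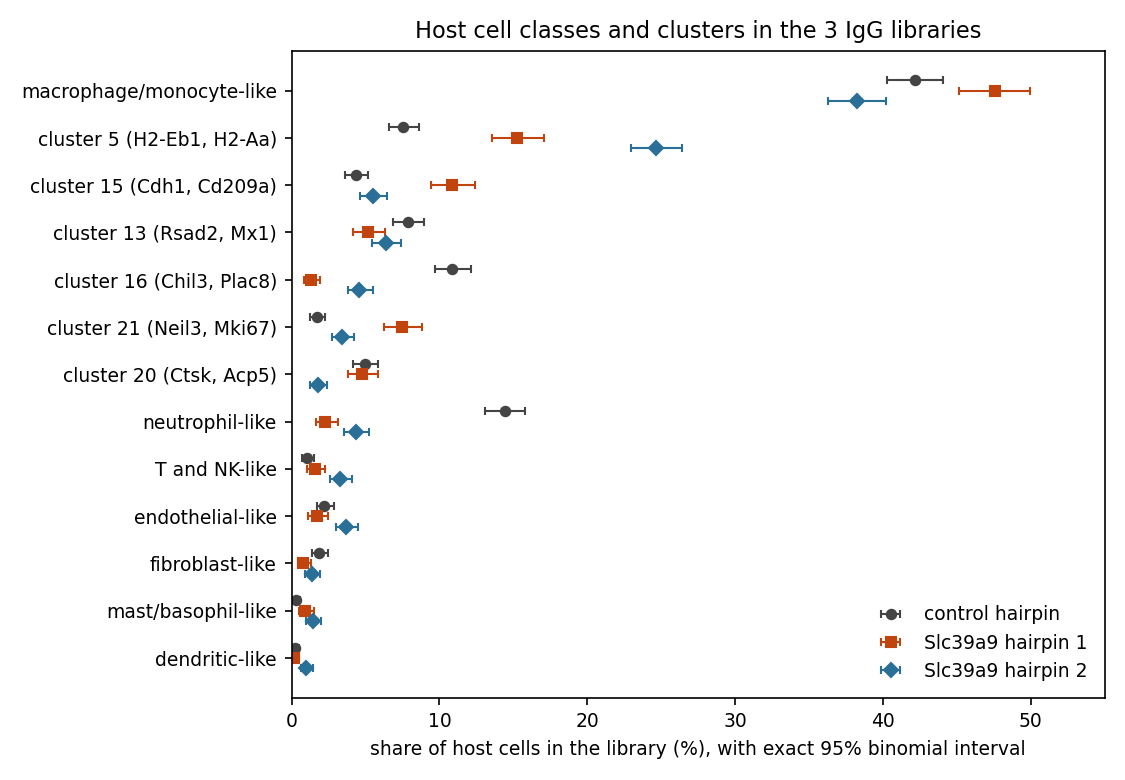
Share of host cells (percent) in each host class or cluster, by IgG library, with 95% exact binomial intervals. The neutrophil-like share is highest in the control library (14.4% against 2.29% and 4.35%), and cluster 5 is lowest there (7.57% against 15.2% and 24.7%).

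The 3 libraries from anti-PD-1-treated mice gave the same comparison in other tumours of the same cell pools. Slc39a9 in tumour-line cells was at 21.8, 8.17 and 11.1 CPM there. Of the genes higher past the fold under IgG and measured there, 308 of 796 in tumour-line cells (38.7%) were past it in the same direction, against 5.19% of all genes. These 308 were 37.5% of the genes higher past the fold in the anti-PD-1 libraries. Of the lower genes 258 of 626 (41.2%) were, against 3.14% of all genes, and they were 52% of the anti-PD-1 list. In macrophage/monocyte-like cells the counts were 83 of 352 higher (23.6% of the IgG list, 31.1% of the anti-PD-1 list) and 73 of 321 lower (22.7% and 35.8%), against 2.38% and 1.82% of all genes. In cluster 5 they were 95 of 508 higher (18.7%, and 21.4% of the anti-PD-1 list) and 65 of 400 lower (16.2% and 22.6%), against 4.73% and 3.06% of all genes. In cluster 15 they were 30 of 431 higher (6.96% and 10.8%) and 30 of 344 lower (8.72% and 16.1%), against 3.98% and 2.67% of all genes, while 16 and 21 were past the fold in the opposite direction. The cell pools are the same in both sets, so the sets cannot tell the hairpins apart from other traits of the pools.

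Zinc genes under anti-PD-1 were low mainly with hairpin 1: Mt2 was at 843, 270 and 590 CPM in tumour-line cells, Mt1 at 874, 330 and 630 CPM and Slc30a1 at 12.3, 4.56 and 9.67 CPM, and none was past the fold in both lines. Lcn2 (65.2, 3.75 and 23.1 CPM), Nppb (209.9, 28.5 and 96.4 CPM), Hmox1 (162, 76.7 and 60.3 CPM) and Trib3 (15.3, 2.50 and 3.27 CPM) were again lower past the fold in both. H2-K1 (52.0, 192 and 90.3 CPM), Osr2 (9.96, 43.7 and 22.0 CPM) and Mme (81.3, 247 and 171 CPM) were again higher in both. Cenpe was at 98.5, 232 and 146 CPM, within the fold for hairpin 2.

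In macrophage/monocyte-like cells Cd163 was at 191, 27.9 and 44.9 CPM under anti-PD-1 and H2-Aa at 65.9, 116 and 175 CPM, both in the order seen under IgG. Slc40a1 was at 44.8, 24.3 and 50.6 CPM and Mt2 at 58.5, 26.5 and 50.9 CPM, so that the hairpin 2 library was near the control. Neutrophil-like cells were 14.5%, 3.58% and 6.26% of host cells, and cluster 5 was 9.68%, 6.54% and 21.5%, below the control with hairpin 1 and above it with hairpin 2.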

How the data were processed

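Tumours were digested with collagenase IV, dispase and DNase, filtered and cleared of red cells before single-cell capture, per the labels' protocols. The deposited files hold raw UMI counts per gene and barcode, made by the authors with Cell Ranger 7.0.1 on mm10, per the submitters' processing notes. Whether free RNA was removed is not given in the sources used here, and no correction for it was applied here. The members, gene lists and tests were chosen with earlier results of these data known.

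Cells of all 6 libraries were clustered together with scanpy 1.11.5 (2000 variable genes, 30 principal components, 15 neighbours, Leiden resolution 1), after removing doublets called at an expected rate of 0.06. Host and tumour line were separated by a 4-fold contrast of Xist and Y-linked genes. Host clusters were named from marker lists. A name needed 3 or more markers of the best list raised (log2 fold change of 1), and 1 among the 10 leading genes. The clusters 0 and 7 formed the macrophage/monocyte-like class, each with 14 macrophage markers raised. Clusters 5, 13, 15, 21 and 26 had 13 to 15 raised but none among the leading genes, and stayed unnamed. Cluster 16 lost its name because another list had a larger share of its markers raised.

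UMIs were summed per library and class and tested in the 3 IgG libraries with edgeR 4.0.16 in R 4.3.3 (TMM, filterByExpr, glmQLFit and glmQLFTest, adjusted p below 0.05). DESeq2 1.42.0 was an alternative. Ratios used counts plus 0.5. The edgeR step was run on simulated counts in which both hairpin lines shared each change, unlike the lines here. That run does not measure how many of the calls here are false. Genes were named by rule: in tumour-line and macrophage/monocyte-like cells, the 10 genes in each direction with the largest smaller log2 difference of the 2 hairpins, where the 3 IgG libraries averaged 20 CPM or more; the leading 4 in other clusters; the targets; and, among list members past the fold in both lines, all zinc genes and the 4 of each list with the highest mean CPM. Chosen after their values were seen were Aldh1l2, Atf4, Trib3, Csf3, B2m, H2-D1, Slc39a14, Slc39a7 and Mtf1 in tumour-line cells and Ciita, Ccnd2, Cx3cr1, Mrc1, Hmox1, H2-DMa, H2-K1, Mt1, S100a8 and Slpi in macrophage/monocyte-like cells. Annotation came from GENCODE M21 and promoters from RefSeq. Shares carry exact Clopper-Pearson 95% intervals. Some genes that the rule names are not reported here.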

Additional observations from a re-analysis of the deposited data

Results flagged for a closer look

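Fabp4, which encodes a lipid-binding protein of adipocytes, endothelium and macrophages, differed in opposite directions in the 2 classes. In tumour-line cells it was lower in both hairpin lines, at 5.96 CPM in the control and 1.30 and 3.54 CPM with hairpins 1 and 2. In macrophage/monocyte-like cells it was higher in both, at 2.96, 5.43 and 8.14 CPM. The log2 ratios to the control, averaged over both hairpins, differed by -2.61 (tumour-line minus macrophage/monocyte-like). Neither edgeR estimate was past the threshold, with adjusted p-values of 0.861 and 0.819, and the difference itself was not tested. The direction in macrophages turns with the cells counted: over all host clusters with the macrophage list as best the edgeR estimate was -1.38 against 1.16. Of 5 host clusters 2 were higher in both lines and 2 lower.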

How the results depend on the processing

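No paired analysis was possible because the control has 1 IgG library. In tumour-line cells edgeR called no gene with all 6 libraries, size factors of the relative log expression kind, doublets kept, either hairpin left out or clusters with other markers dropped, against 63 by DESeq2 and 7 without the count filter. Genes past the fold numbered 861 higher and 672 lower, against 320 and 268 at 2-fold and 57 and 95 with a mean of at least 20 CPM. With 1 hairpin left out they ranged from 1646 to 2260 higher and from 1348 to 1736 lower, since a single hairpin then has to pass. In macrophage/monocyte-like cells the 81 calls became 6 by DESeq2, 1 with 6 libraries, 185 without the count filter and 161 with doublets kept, of which 63 were shared with the 81. Summing all host clusters with the macrophage list as best, an alternative added after seeing the data, gave 6 calls, 5 of them shared. In the fit over all groups, leaving out hairpin 1 gave 7 calls and leaving out hairpin 2 gave 37. The 404 higher and 356 lower genes became 129 and 107 at 2-fold, 58 and 78 with at least 20 CPM, and ranged from 853 to 935 and from 918 to 981 with 1 hairpin left out. In the wider macrophage set Ect2 reversed to 0.62 and Fabp4 to -1.38, and the cause was not tested. The shares of host and neutrophil-like cells kept their direction in each alternative run. Weighting to the control's cluster mix kept the direction of all 59 named macrophage/monocyte-like and all 91 named tumour-line genes. With UMIs of 2308186 to 3439567 per library, depth limits genes of a few UMIs in the macrophage/monocyte-like sums.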
